A study of Mus musculus with 8 samples.

Results

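Glycolysis and hypoxia genes were examined in cultured mouse colon fibroblasts that carried or had lost the transcription factor gene Zeb1. The set held 34 genes, chosen by symbol for their textbook roles, out of 45321 genes with values in the 8 RNA sequencing libraries. They comprised 3 glucose and lactate transporters, 17 glycolytic enzymes, 3 regulators of glycolytic flux, 4 genes for HIF subunits and oxygen sensors and 7 other targets of hypoxia-inducible factors (HIFs). All 34 had values, and 33 had enough reads to be tested. Car9, a membrane carbonic anhydrase used as a marker of hypoxia, was the member below the filter, at 0.0516 to 0.321 CPM (counts scaled to the size of the library) in the control libraries and 0.0456 to 0.22 CPM in the Zeb1-deleted libraries.

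The cells grew out of colon fragments of mice with floxed Zeb1 alleles and were kept as adherent cultures on gelatine with serum. In Fib-dZeb1 cells the floxed alleles had been deleted by Cre activity induced in the dish, and Fib-Ctrl cells had not lost them. Each genotype was represented by 2 lines, line 1 and line 2, with 2 replicate libraries a line, so that 8 libraries came from 4 cultures and no culture received a further treatment. The sources used here do not state whether Fib-Ctrl cells were exposed to Cre, whether lines that carry one number trace back to one mouse, whether replicates of a line were separate dishes, or the oxygen level of the cultures. The p-values below therefore measure the spread between these libraries, part of which may be technical.

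Glycolysis splits glucose into pyruvate in the cytosol, and lactate dehydrogenase and the monocarboxylate transporters dispose of the pyruvate as lactate when it is not burned in mitochondria. HIFs are made of an oxygen-labile alpha subunit, encoded by Hif1a or Epas1, and a stable partner; prolyl hydroxylases such as those encoded by Egln1 and Egln3 mark the alpha subunit for destruction when oxygen is present. Most HIF control acts on the alpha protein, which RNA levels do not report. Many glycolytic genes are direct HIF targets, and activated fibroblasts are known for high glycolytic flux and lactate release.

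The libraries held between 18852422 and 25540529 reads assigned to transcripts. Zeb1 itself checked the labels: it was at 92.1 to 98.5 CPM in Fib-Ctrl libraries and 11.4 to 18.3 CPM after deletion (log2 fold change -2.73, SE 0.15, adjusted p = 4.8e-05). Fibroblast markers were abundant in every library, with a summed level of 18465 to 23655 TPM (counts scaled to transcript length and to a fixed total) in Fib-Ctrl and 8452 to 13382 TPM in Fib-dZeb1, and 4 of the 10 tested were lower in Fib-dZeb1. Epithelial markers summed to 2.92 to 7.28 TPM and 26.2 to 192 TPM, with Epcam and Krt18 called higher out of 3 tested, none of the 10 listed at 0 in every library, and Cdh1 at no more than 0.41 CPM. Smooth muscle markers summed to 1938 to 4057 TPM and 436 to 662 TPM, with 3 of the 5 tested lower in Fib-dZeb1. These marker calls compare with 8.65% of all genes tested called lower and 7.54% called higher. The part of these marker shifts in the results below was not tested, and in bulk cultures fewer cells of a type and less RNA per cell cannot be told apart.

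Per unit of transcript length, the enzymes of the later steps of the pathway were among the most abundant RNAs of these cells. Gapdh, the glyceraldehyde phosphate dehydrogenase, ranked 13 of all genes by mean TPM, at 4179 ± 459.7 TPM in Fib-Ctrl and 4293 ± 454 TPM in Fib-dZeb1 (mean ± SD, n = 4 libraries each, as for all such values below). Pkm, Eno1, Ldha and Aldoa followed at ranks 94, 127, 130 and 135, with Pgam1 at 178, Pgk1 at 190, Tpi1 at 222 and Gpi1 at 420. Summed over the 17 enzymes, the level was 12003, 15795, 12064 and 12185 TPM in the Fib-Ctrl libraries and 10522, 14762, 13476 and 14878 TPM in the Fib-dZeb1 libraries. The groups overlapped throughout this sum, which took 1.30% of all TPM in Fib-Ctrl and 1.34% in Fib-dZeb1. Here and below, the 4 values of a genotype are given in the order line 1 replicate 1, line 1 replicate 2, line 2 replicate 1 and line 2 replicate 2.

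A single isozyme dominated most steps. Within the TPM of each family, Aldoa made up 99.96% ± 0.027 of Aldoa and Aldoc in Fib-Ctrl and 99.6% ± 0.271 in Fib-dZeb1, Ldha made up 96.7% ± 1.65 and 95.9% ± 2.31 of Ldha and Ldhb, and Hk1 made up 79.1% ± 5.31 and 83.0% ± 5.6 of Hk1 and Hk2. Pfkl supplied 59.2% ± 5.67 and 55.9% ± 8.04 of the phosphofructokinase RNA, with Pfkp and Pfkm sharing the rest. Hif1a supplied 96.9% ± 1.06 and 95.6% ± 0.393 of the HIF alpha RNA. The largest shift of balance in these families lay between the lactate transporters: Slc16a3 (MCT4, an exporter typical of glycolytic cells) made up 93.2%, 94.7%, 83.6% and 70.7% of the Slc16a1 and Slc16a3 RNA in Fib-Ctrl but 32.8%, 55.2%, 80.9% and 83.4% in Fib-dZeb1. The low shares were both in line 1 of Fib-dZeb1, and the line 2 shares lay inside the Fib-Ctrl range.

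**Figure D1:**
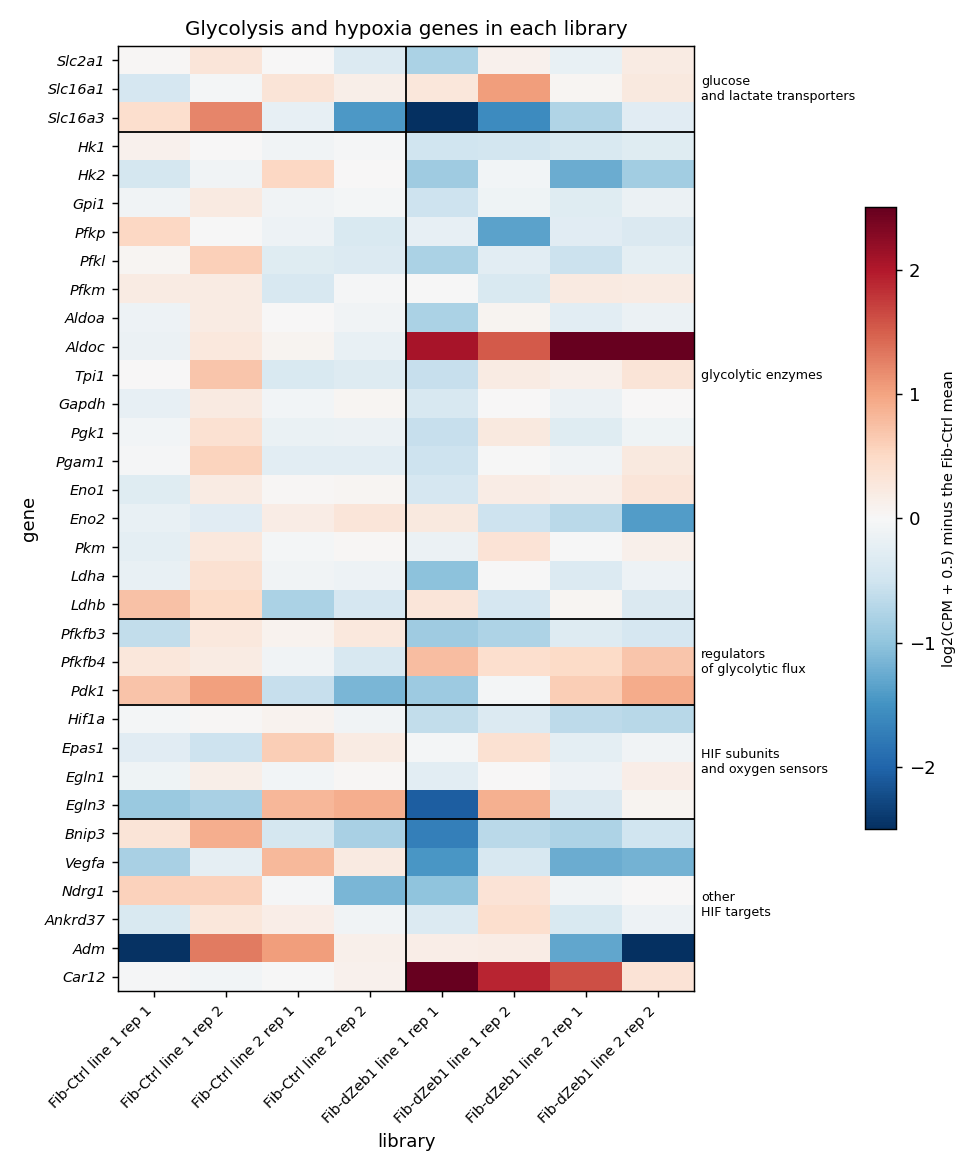
Level of the 33 tested genes (rows, ordered by role) in the 8 libraries (columns), as log2(CPM + 0.5) minus the mean of the 4 Fib-Ctrl libraries, with colours clipped at the ends of the scale bar. Fib-dZeb1 line 1 replicate 1 holds the lowest value for 17 of the 33 genes and Fib-Ctrl line 1 replicate 2 the highest for 14, while Aldoc and Car12 stand out as high in Fib-dZeb1.

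The first comparison asked whether loss of Zeb1 moved these genes across all 8 libraries. At an adjusted p under 0.05, 4 of the 33 members passed: the aldolase isozyme gene Aldoc and the carbonic anhydrase gene Car12 rose in Fib-dZeb1, and Hif1a and the hexokinase gene Hk1 fell. That is 12.1% of the members, against 16.2% of all 12963 genes tested. By direction, 2 members rose against 7.54% of all genes, and 2 fell against 8.65%. At an unadjusted p under 0.05 there were 9 of the 33 members, against 4243 of the 12963 genes tested. The members' median log2 fold change was -0.22 and that of all genes -0.00, with 25 of 33 members below 0.

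How many members lay below 0 depended on the scaling. With library size alone, the median of all genes moved to 0.17 and 17 of 33 members were below 0, although 25 of 33 were still below the median of all genes. On TPM, these counts were 17 and 24, with the median of all genes at 0.15. The 8 libraries came from 4 cultures. With the 2 libraries of each culture summed, edgeR called 0 members at an adjusted p under 0.05 and 4 at an unadjusted p under 0.05. Of all genes, that fit called 0.0635% as higher and 0.0494% as lower at the adjusted threshold. With limma-voom and an estimated correlation within cultures, 0 and 3 members passed these thresholds. Of all genes, limma-voom called 0.879% as higher and 1.13% as lower at the adjusted threshold, so 0 members says little about this set. The shares of all genes at an unadjusted p are not given for these fits. In the 4-culture fit the adjusted p was 0.192 for Aldoc, 0.236 for Car12, 0.266 for Hif1a and 0.354 for Hk1, with log2 fold changes of 3.94, 2.85, -0.57 and -0.41.

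Aldoc, on chromosome 11 (GRCm38 chr11:78322968-78327781, plus strand, ENSMUSG00000017390.15), encodes the aldolase best known from brain. It was at 0.229, 0.463, 0.349 and 0.206 CPM in the Fib-Ctrl libraries and 2.86, 1.84, 7.38 and 6.94 CPM in the Fib-dZeb1 libraries. Every Fib-dZeb1 library lay above every Fib-Ctrl library, and line 2 was the higher of the Fib-dZeb1 lines. Aldoc had enough reads for the test through its Fib-dZeb1 libraries alone, so the direction and the lack of overlap were partly set by that filter. The change was 15.1-fold (log2 fold change 3.91, SE 0.56, adjusted p = 0.00485), or a log2 fold change of 3.17 once transcript length was taken into account. Even so, Aldoc held no more than 0.652% of the TPM of Aldoa and Aldoc in any library.

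Car12, on chromosome 9 (GRCm38 chr9:66713686-66766845, ENSMUSG00000032373.15), encodes a membrane carbonic anhydrase that turns over carbon dioxide and bicarbonate at the cell surface. It was at 0.275, 0.257, 0.291 and 0.361 CPM in the Fib-Ctrl libraries and 4.01, 2.47, 1.91 and 0.514 CPM in the Fib-dZeb1 libraries. The genotypes did not overlap, but Fib-dZeb1 line 2 replicate 2 was near the highest Fib-Ctrl library. Like Aldoc, Car12 passed the read filter through its Fib-dZeb1 libraries alone, so its direction and lack of overlap were partly set by the filter. The rise (log2 fold change 2.88, SE 0.60, adjusted p = 0.0157) rested on few reads, between 5 and 84 a library. Its mean level in Fib-dZeb1 was 1.40 TPM, against 0.138 TPM in Fib-Ctrl.

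Hif1a, on chromosome 12 (GRCm38 chr12:73901375-73947530, plus strand, ENSMUSG00000021109.13), was at 273, 289, 300.2 and 265 CPM in the Fib-Ctrl libraries and 183, 222, 179 and 174 CPM in the Fib-dZeb1 libraries. The genotypes did not overlap. It fell by 0.57 on the log2 scale (SE 0.11, adjusted p = 0.0104), and it passed the test within line 1 (log2 fold change -0.47, adjusted p = 0.0287) and within line 2 (log2 fold change -0.68, adjusted p = 0.00792). With library size alone the fall over all 8 libraries was smaller, at a log2 fold change of -0.39 (adjusted p = 0.0274). That scaling also lost the line 1 call, and neither line call held in every fit that left out a single library.

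Hk1, on chromosome 10 (GRCm38 chr10:62268855-62379908, minus strand, ENSMUSG00000037012.18), encodes the hexokinase that commits glucose to the cell in most tissues. It was at 165, 153, 142 and 149 CPM in the Fib-Ctrl libraries and 107, 110.3, 116 and 123 CPM in the Fib-dZeb1 libraries. Again no library of one genotype reached the other. It fell by 0.41 on the log2 scale (SE 0.09, adjusted p = 0.0182), a call that was lost with library size alone (adjusted p = 0.105) and on TPM (adjusted p = 0.116).

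Of the 33 members, 6 did not overlap between genotypes in CPM, where 24.3% of all genes tested did not. Aldoc and Car12 are among the 6, and for them the read filter partly set this outcome. Beside the 4 called genes, the others were Gpi1 and Pfkfb4. Gpi1, the glucose phosphate isomerase, was at 389.9, 483, 387 and 400.5 CPM in the Fib-Ctrl libraries and 289, 385, 336 and 372 CPM in the Fib-dZeb1 libraries (log2 fold change -0.26, adjusted p = 0.178). Its lowest Fib-Ctrl library and highest Fib-dZeb1 library were nearly level. Pfkfb4, which makes and breaks down the fructose bisphosphate that stimulates phosphofructokinase, was at 6.96, 6.58, 5.30 and 4.13 CPM in the Fib-Ctrl libraries and 9.93, 7.74, 8.07 and 9.43 CPM in the Fib-dZeb1 libraries (log2 fold change 0.61, adjusted p = 0.0786).

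**Figure D2:**
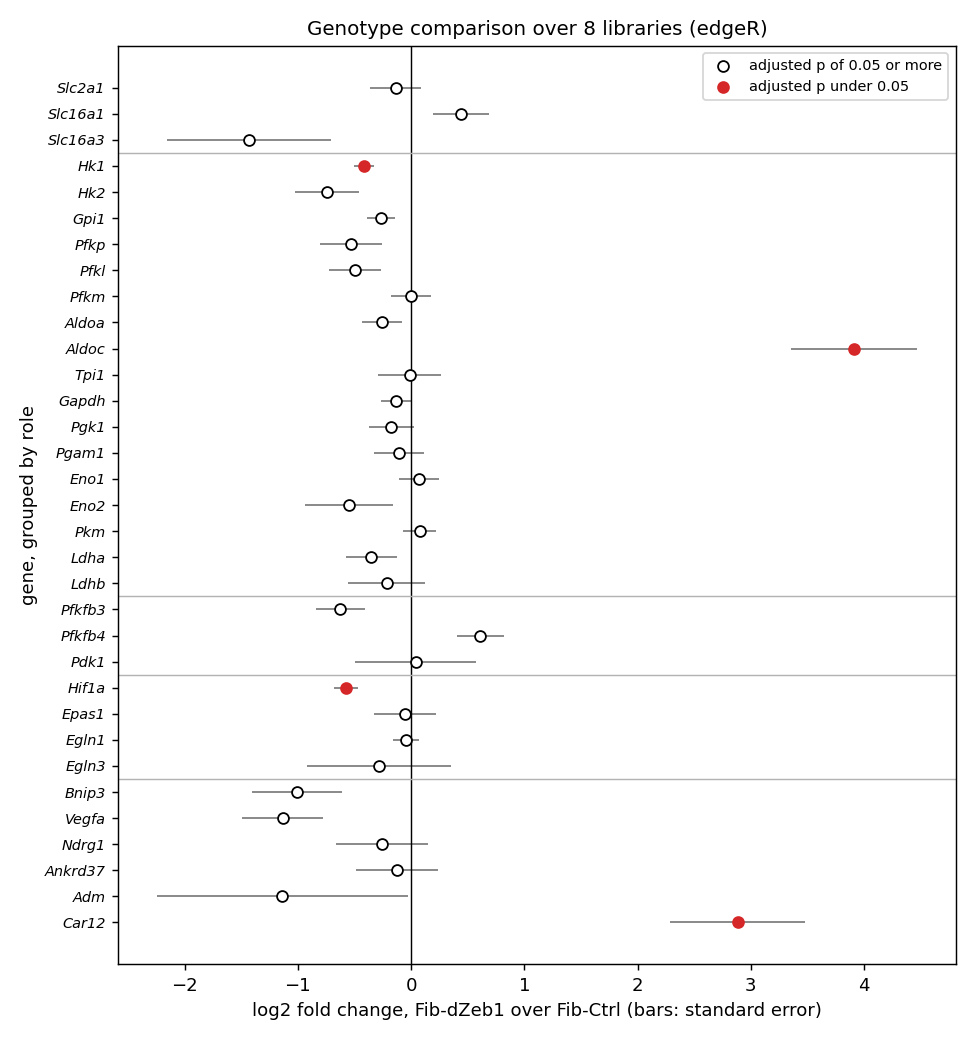
Log2 fold change of Fib-dZeb1 against Fib-Ctrl (x axis) for each of the 33 tested genes (y axis, by role), from edgeR on 8 libraries; bars are standard errors and filled red points have an adjusted p under 0.05. Aldoc (3.91) and Car12 (2.88) lie far to the right, Hif1a (-0.57) and Hk1 (-0.41) have short bars to the left of 0, and Slc16a3 (-1.43), Adm (-1.14), Vegfa (-1.13) and Bnip3 (-1.01) lie to the left with wide bars.

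**Figure D3:**
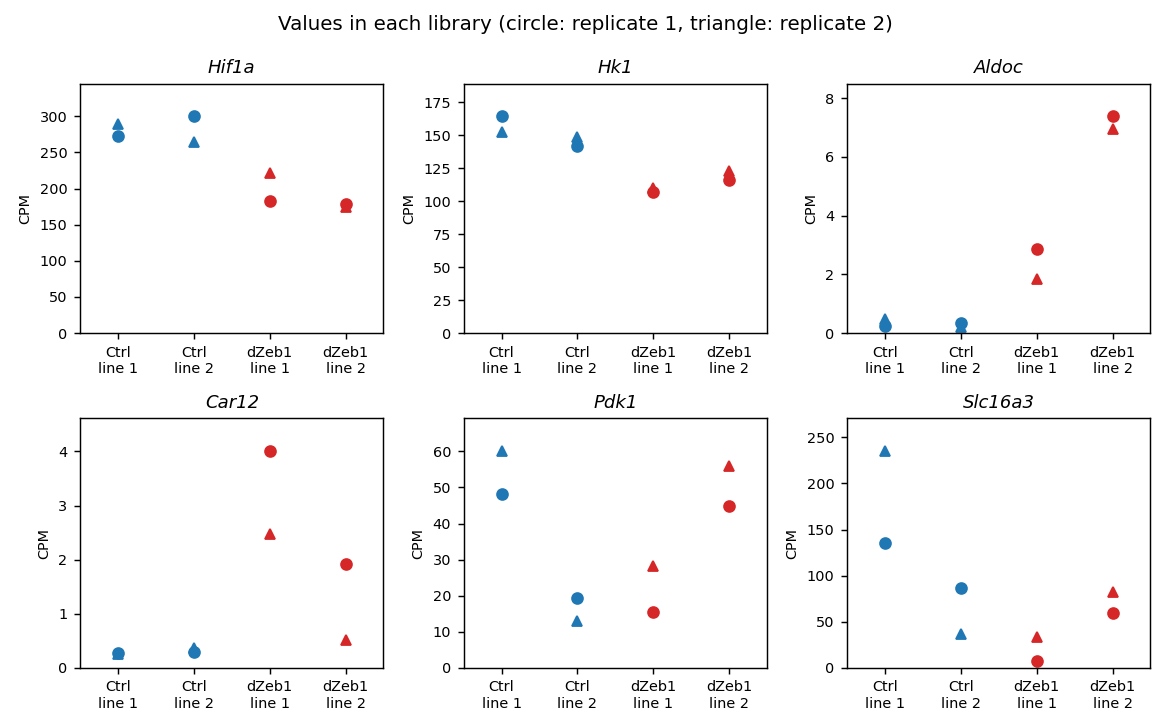
CPM in each library (y axes, linear and starting at 0) of Hif1a, Hk1, Aldoc, Car12, Pdk1 and Slc16a3 by line and genotype (x axis), with circles for replicate 1 and triangles for replicate 2. Hif1a, Hk1, Aldoc and Car12 separate by genotype in both lines, whereas Pdk1 is higher in Fib-Ctrl in line 1 and higher in Fib-dZeb1 in line 2.

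The promoter windows of the 4 called members are given because HIFs bind a core read as ACGTG, or with G as its first base as GCGTG, and Zeb1 binds the E-box CACCTG. Each window is the 300 bases from 250 before to 50 after a start site in RefSeq (GRCm38.p6), read 5′ to 3′ on the gene's strand, taken from the start nearest that of the most abundant transcript. Capitals mark either form of the HIF core and the E-box on either strand. A palindromic CACGTG holds ACGTG on both strands and was counted on each.
Aldoc promoter, chr11:78323948-78324247, plus strand: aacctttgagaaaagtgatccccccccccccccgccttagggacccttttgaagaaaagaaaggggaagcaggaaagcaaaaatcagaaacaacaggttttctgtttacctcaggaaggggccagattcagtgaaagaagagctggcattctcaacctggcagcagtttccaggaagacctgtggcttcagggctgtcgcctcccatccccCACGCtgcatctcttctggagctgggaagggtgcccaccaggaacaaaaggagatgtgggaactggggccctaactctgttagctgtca
Car12 promoter, chr9:66713436-66713735, plus strand: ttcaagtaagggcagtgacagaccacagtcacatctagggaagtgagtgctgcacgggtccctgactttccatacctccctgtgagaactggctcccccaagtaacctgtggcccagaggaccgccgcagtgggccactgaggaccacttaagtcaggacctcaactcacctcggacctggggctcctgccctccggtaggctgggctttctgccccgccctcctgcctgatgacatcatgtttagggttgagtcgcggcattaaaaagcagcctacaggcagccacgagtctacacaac
Hif1a promoter, chr12:73907617-73907916, plus strand: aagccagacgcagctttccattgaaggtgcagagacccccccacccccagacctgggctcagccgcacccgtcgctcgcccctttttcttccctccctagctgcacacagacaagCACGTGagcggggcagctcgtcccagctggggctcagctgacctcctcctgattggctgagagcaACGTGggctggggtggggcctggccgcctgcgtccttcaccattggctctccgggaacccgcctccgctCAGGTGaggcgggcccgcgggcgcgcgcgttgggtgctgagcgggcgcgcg
Hk1 promoter, chr10:62340372-62340671, minus strand: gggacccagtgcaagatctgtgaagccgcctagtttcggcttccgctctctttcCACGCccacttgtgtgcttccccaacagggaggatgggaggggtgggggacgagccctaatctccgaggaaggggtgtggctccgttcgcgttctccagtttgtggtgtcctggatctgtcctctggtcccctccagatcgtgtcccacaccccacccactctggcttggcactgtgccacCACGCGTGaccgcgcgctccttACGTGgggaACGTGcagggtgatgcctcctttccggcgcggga

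The Aldoc window held 1 match of the HIF core, the Hif1a window 3 matches and 1 CACCTG, and the Hk1 window 5 matches of the HIF core, while the Car12 window held neither motif. Of the 34 members, 32 had a window, and the nearest window held the HIF core in 26 of them (81.2%) and CACCTG in 4 (12.5%), namely Hif1a, Egln1, Bnip3 and Car9. Over all 46 windows of members, 78.3% held the HIF core and 19.6% held CACCTG. Over the 12515 windows of genes tested here the shares were 62.0% and 17.3%, at a median GC content of 61.0% against 61.2% for the members, and over all 32851 windows they were 43.8% and 20.2%, at 52.7% GC. These letters are a description of the windows and were not tested as binding sites.

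No glucose or lactate transporter of the set passed the comparison over all 8 libraries, by edgeR, and none of the 3 had genotypes that were separated. Slc2a1 (GLUT1, the basal glucose importer) was at 128, 154, 126 and 98.4 CPM in the Fib-Ctrl libraries and 71.6, 134, 110.3 and 145 CPM in the Fib-dZeb1 libraries (log2 fold change -0.14, SE 0.22, adjusted p = 0.712). Slc16a1 (MCT1, which carries lactate in both directions) was at 26.6, 34.3, 44.4 and 39.3 CPM in the Fib-Ctrl libraries and 43.1, 74.2, 36.6 and 42.0 CPM in the Fib-dZeb1 libraries (log2 fold change 0.44, SE 0.25, adjusted p = 0.25). Its highest library was Fib-dZeb1 line 1 replicate 2, and line 2 of the genotypes overlapped. Slc16a3 was at 136, 235, 86.9 and 37.2 CPM in the Fib-Ctrl libraries and 7.35, 33.8, 59.9 and 82.4 CPM in the Fib-dZeb1 libraries (log2 fold change -1.43, SE 0.72, adjusted p = 0.206). Both line 1 libraries of Fib-dZeb1 were the lowest of all, and Fib-Ctrl line 2 overlapped Fib-dZeb1 line 2.

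Among the 17 enzymes, Aldoc rose, Hk1 fell and 15 did not pass. Gapdh was at 2546, 3460.2, 2807 and 3072 CPM in the Fib-Ctrl libraries and 2246, 2961, 2673 and 2968 CPM in the Fib-dZeb1 libraries (log2 fold change -0.13, SE 0.14, adjusted p = 0.543). Pkm, the pyruvate kinase of the last step, was at 1946, 2744, 2226 and 2339.8 CPM in the Fib-Ctrl libraries and 2076, 2899, 2289 and 2498 CPM in the Fib-dZeb1 libraries (log2 fold change 0.08, SE 0.14, adjusted p = 0.754). In both genes the replicates of line 1 differed by more than the means of the genotypes did. Hk2, the inducible hexokinase, was at 40.4, 51.5, 79.0 and 55.2 CPM in the Fib-Ctrl libraries and 29.4, 52.5, 23.1 and 29.9 CPM in the Fib-dZeb1 libraries (log2 fold change -0.74, SE 0.28, adjusted p = 0.107). It was high in line 2 of Fib-Ctrl, while the line 1 libraries overlapped. Pfkl, a phosphofructokinase subunit of the rate-setting step, was at 228, 331, 179 and 172 CPM in the Fib-Ctrl libraries and 126, 182, 151 and 186 CPM in the Fib-dZeb1 libraries (log2 fold change -0.49, SE 0.23, adjusted p = 0.166).

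The remaining 10 enzymes had log2 fold changes between -0.55 for Eno2 and 0.07 for Eno1, with adjusted p from 0.219 to 0.996. Ldha, which makes lactate, stood at -0.35 (SE 0.23), Aldoa at -0.26 (SE 0.18) and Tpi1 at -0.01 (SE 0.28). For the later steps of the pathway, the ranges in Fib-Ctrl and in Fib-dZeb1 were 1035 to 1535 CPM and 574 to 1163 CPM for Ldha, 1051 to 1505 CPM and 971 to 1609.7 CPM for Eno1, 756 to 1336 CPM and 636 to 1087 CPM for Pgam1 and 768 to 1125 CPM and 577 to 1016 CPM for Pgk1. For the earlier steps they were 906 to 1153 CPM and 574 to 1040.1 CPM for Aldoa, 404 to 855 CPM and 351 to 661 CPM for Tpi1, 45.6 to 85.7 CPM and 23.1 to 51.3 CPM for Pfkp and 41.1 to 62.7 CPM and 41.2 to 62.9 CPM for Pfkm. In each of these genes the genotypes overlapped. The Eno1 value is uncertain, since 32.5% to 34.7% of the reads of Eno1 and its 3 near-identical copies were assigned to the copies, mostly Gm4735. Summed over Eno1 and the copies, the mean was 1978 ± 287 CPM for the Fib-Ctrl libraries against 2062 ± 430 CPM for Fib-dZeb1. Near-identical copies took up to 4.22% of such reads for Ldhb and up to 2.20% for Gapdh. Tpi1, Gapdh, Pfkp and Pfkm each overlap a gene on the opposite strand, and the strand setting of the read counting was not given.

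Pkm makes alternative pyruvate kinases from a pair of mutually exclusive exons, M1 from the upstream exon and M2 from the downstream exon; M2 is the form of most dividing cells and M1 that of muscle and brain. The exons lie on chromosome 9, on the plus strand. They are shown because the transcripts that carry them are told apart by these bases alone in the coding sequence. Of their 167 bases each, 103 are identical and 64 differ (61.7% identity, aligned without gaps), and capitals mark the positions that differ.
Pkm upstream exon, GRCm38 chr9:59675029-59675195: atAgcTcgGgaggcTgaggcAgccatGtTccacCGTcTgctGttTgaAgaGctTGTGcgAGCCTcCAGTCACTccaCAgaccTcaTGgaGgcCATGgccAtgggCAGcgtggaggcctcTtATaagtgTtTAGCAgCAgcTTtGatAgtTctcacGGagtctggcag
Pkm downstream exon, GRCm38 chr9:59675568-59675734: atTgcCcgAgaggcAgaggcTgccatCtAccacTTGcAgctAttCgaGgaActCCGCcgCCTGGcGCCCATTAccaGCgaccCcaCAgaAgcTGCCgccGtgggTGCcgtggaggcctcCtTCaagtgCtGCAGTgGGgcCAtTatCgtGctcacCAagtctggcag

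Gene-level Pkm did not pass the test between genotypes, but the balance of its transcripts differed. The upstream-exon transcript made up 22.8%, 18.2%, 25.9% and 20.4% of the TPM of both in the Fib-Ctrl libraries and 12.7%, 9.55%, 9.48% and 8.85% in the Fib-dZeb1 libraries. Every Fib-dZeb1 library lay below every Fib-Ctrl library. The means were 21.8% ± 3.30 and 10.1% ± 1.72, a difference of -11.7 percentage points (exact permutation test, two-sided, p = 0.0286, the smallest p that 4 against 4 libraries allow). Without any 1 library the difference ran from -12.9 to -10.4 points, and p was 0.0571, the smallest that 3 against 4 allow.

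The upstream-exon transcript itself was at 335 to 419 TPM in Fib-Ctrl and 180 to 218 TPM in Fib-dZeb1, and the downstream-exon transcript at 1134 to 1609 TPM and 1505 to 2059 TPM. The genotypes did not overlap in the former and overlapped in the latter. The 4 libraries of a genotype came from 2 cultures, so that the permutation test treats libraries of a culture as separate. The share is Salmon's estimate between similar transcripts, not a count of reads over exon junctions, and junction reads were not analysed here. The deposited tables list both transcripts at equal length, whereas the GENCODE annotation used here has a shorter upstream-exon transcript, so the share also depends on the transcript models. Within each of the 4 cultures it was lower in replicate 2 than in replicate 1.

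**Figure D4:**
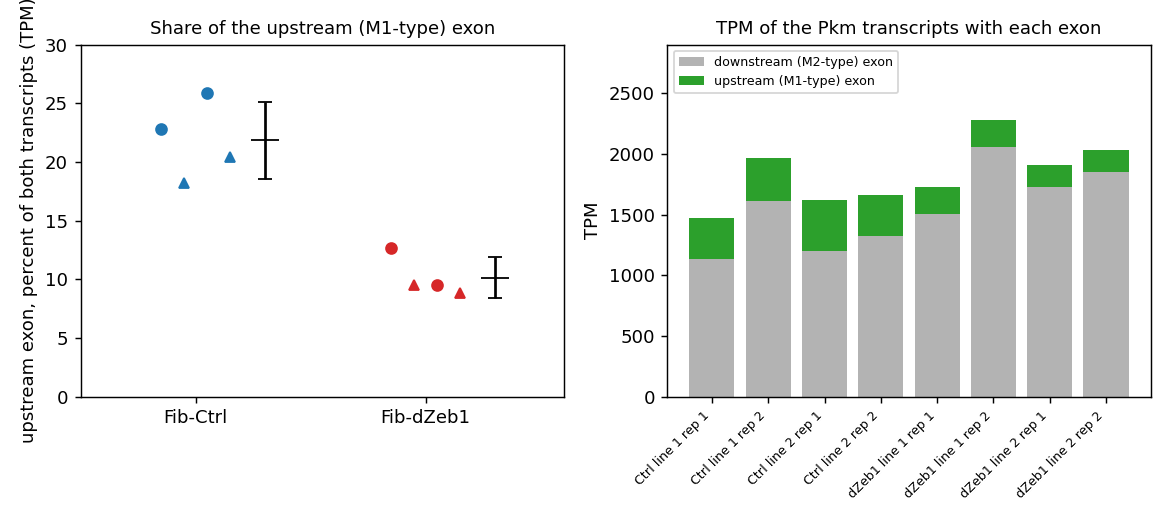
Left, share of Pkm TPM in the upstream-exon transcript in each library (y axis in percent, points) with the mean and SD of each genotype; right, stacked TPM of the upstream-exon and downstream-exon transcripts in each of the 8 libraries. The Fib-Ctrl libraries sit between 18.2% and 25.9% and the Fib-dZeb1 libraries between 8.85% and 12.7%.

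None of the 3 regulators of flux passed over all 8 libraries by edgeR with TMM scaling. Pfkfb4 passed as higher in Fib-dZeb1 with library size alone, with DESeq2 and with limma on TPM, and Pfkfb3 passed as lower with DESeq2 and in the fits with the line number as a block. Pfkfb3, the more abundant of the enzymes that make fructose bisphosphate for phosphofructokinase, was at 36.4, 67.2, 59.6 and 66.8 CPM in the Fib-Ctrl libraries and 30.03, 32.5, 44.8 and 41.9 CPM in the Fib-dZeb1 libraries (log2 fold change -0.62, SE 0.22, adjusted p = 0.0815). Fib-Ctrl line 1 replicate 1 was inside the Fib-dZeb1 range and the other Fib-Ctrl libraries were above it. Within the TPM of Pfkfb3 and Pfkfb4, Pfkfb3 made up 87.0% ± 6.18 in Fib-Ctrl and 72.8% ± 8.80 in Fib-dZeb1. Pdk1, the kinase that shuts pyruvate out of the mitochondrial oxidation route, had a log2 fold change of 0.04 (adjusted p = 0.969) over all libraries. Contrasts of cultures with the same line number had opposite signs, but line numbers were not taken to pair genotypes.

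Of the oxygen sensing genes, Hif1a fell and the other 3 did not pass. Egln1, the main prolyl hydroxylase, varied little, at 93.0, 111, 94.9 and 102 CPM in the Fib-Ctrl libraries and 83.6, 99.9, 91.9 and 113 CPM in the Fib-dZeb1 libraries (log2 fold change -0.04, SE 0.11, adjusted p = 0.825). Epas1 (HIF-2 alpha) was low, at 3.30 ± 1.22 TPM in Fib-Ctrl and 3.56 ± 0.623 TPM in Fib-dZeb1. By library it was at 8.15, 6.84, 15.7 and 11.6 CPM in the Fib-Ctrl libraries and 9.64, 13.2, 8.48 and 9.40 CPM in the Fib-dZeb1 libraries (log2 fold change -0.05, SE 0.28, adjusted p = 0.916). Fib-Ctrl held both the lowest and the highest libraries, so the Fib-dZeb1 range lay inside that of Fib-Ctrl. Egln3, a hydroxylase gene that HIFs induce and a gene singled out here after its values were seen, was at 19.5, 21.3, 67.6 and 71.9 CPM in the Fib-Ctrl libraries and 8.69, 70.2, 29.3 and 39.6 CPM in the Fib-dZeb1 libraries (log2 fold change -0.28, SE 0.64, adjusted p = 0.796). Fib-dZeb1 line 1 replicates 1 and 2 differed by more than any pair of Fib-Ctrl libraries.

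Among the 7 other HIF targets, Car12 rose, 5 did not pass and Car9 was not tested. Bnip3, which marks mitochondria for removal, was at 91.4, 138, 53.6 and 41.3 CPM in the Fib-Ctrl libraries and 22.0, 45.6, 42.2 and 51.1 CPM in the Fib-dZeb1 libraries (log2 fold change -1.01, SE 0.40, adjusted p = 0.116). Vegfa, the vascular growth factor, was at 77.7, 118, 239.9 and 161 CPM in the Fib-Ctrl libraries and 49.9, 104, 57.9 and 60.2 CPM in the Fib-dZeb1 libraries (log2 fold change -1.13, SE 0.36, adjusted p = 0.0628). In both genes most Fib-dZeb1 libraries were below most Fib-Ctrl libraries, but the groups overlapped. Without Fib-Ctrl line 1 replicate 1 the number of members that fell went from 2 to 4 (12.1% against 5.6% of all genes), with Pfkfb3 and Vegfa added. Without Fib-dZeb1 line 1 replicate 2 it was also 4 (12.1% against 5.39%), with Hk2 and Vegfa added. DESeq2 called 5 (14.7% against 11.7%), with Bnip3, Pfkfb3 and Vegfa added.

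Ndrg1, a stress-responsive gene, ran from 11.5 to 39.4 CPM in Fib-Ctrl and from 12.8 to 33.3 CPM in Fib-dZeb1, and Ankrd37 from 0.916 to 1.75 CPM and from 0.911 to 1.97 CPM. Adm, which encodes the vasodilator peptide adrenomedullin, varied widely within a line, at 2.47, 40.1, 33.5 and 17.5 CPM in the Fib-Ctrl libraries and 17.95, 18.3, 6.24 and 0.0734 CPM in the Fib-dZeb1 libraries (log2 fold change -1.14, SE 1.11). The 5 targets that did not pass had log2 fold changes from -1.14 to -0.12. The median of the 6 tested targets was -0.63, that of the 17 enzymes -0.22, and that of all genes -0.00.

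The lines were then compared separately, with a spread estimated from the replicates of all 4 cultures. In line 1, 9 of 33 members passed (27.3% against 27.4% of all genes), with Slc16a1, Aldoc and Car12 higher in Fib-dZeb1 and Slc16a3, Hk1, Pfkl, Pdk1, Hif1a and Bnip3 lower. In line 2, 7 passed (21.2% against 28.8% of all genes), with Aldoc, Pfkfb4 and Pdk1 higher and Hk2, Eno2, Hif1a and Vegfa lower. The members' median log2 fold change was -0.35 in line 1 and -0.06 in line 2. In this fit neither share was above that of all genes. With no filter on low counts, 18 of 34 members passed in line 1 (52.9% against 21.8% of all genes) and 15 in line 2 (44.1% against 22.5%). That fit took in 21336 genes, including those with too few reads for the filter, while 33 of the 34 members pass the filter. Its shares of members and of all genes are therefore not like for like. These contrasts use different libraries, and each rests on 1 culture of each genotype, so that genotype and culture cannot be told apart within a line.

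In line 1, the largest called falls were in Slc16a3 (log2 fold change -3.17, SE 0.71, adjusted p = 0.0167), Bnip3 (log2 fold change -1.76, SE 0.35, adjusted p = 0.0113) and Pdk1 (log2 fold change -1.30, SE 0.31, adjusted p = 0.0198). Pfkl fell by 0.86 on the log2 scale (SE 0.23, adjusted p = 0.0293) and Slc16a1 rose (log2 fold change 0.95, SE 0.25, adjusted p = 0.0303). The count moved from 9 to 2 without Fib-Ctrl line 1 replicate 2 (6.06% against 13.0% of all genes) and to 16 without Fib-dZeb1 line 1 replicate 2 (48.5% against 18.4%). The comparison with all genes thus turned with 1 library. Aldoc and Hk1 were called in both of these fits.

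In line 2, Vegfa (log2 fold change -1.76, SE 0.36, adjusted p = 0.0118), Hk2 (log2 fold change -1.34, SE 0.30, adjusted p = 0.0165) and Eno2 (log2 fold change -1.41, SE 0.40, adjusted p = 0.0359) fell, and Pdk1 (log2 fold change 1.64, SE 0.31, adjusted p = 0.00885) and Pfkfb4 (log2 fold change 0.89, SE 0.23, adjusted p = 0.0272) rose. Eno2, the neuronal enolase, was at 4.12, 3.86, 5.47 and 5.99 CPM in the Fib-Ctrl libraries and 5.78, 3.18, 2.83 and 1.505 CPM in the Fib-dZeb1 libraries. The low values of Eno2 were all in Fib-dZeb1, but line 1 of the genotypes overlapped. Scaled to transcript length, the line 2 libraries overlapped too, at 3.58 and 3.85 TPM in Fib-Ctrl and 5.97 and 1.21 TPM in Fib-dZeb1. The count of 7 moved to 2 without Fib-Ctrl line 2 replicate 1 (6.06% against 12.3% of all genes) or without Fib-dZeb1 line 2 replicate 2 (6.06% against 9.23%), and to 4 without either of the other line 2 libraries. Aldoc was called in each of these fits.

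The difference between the line 2 and line 1 contrasts passed for 2 members, Pdk1 and Epas1 (6.06% against 15.3% of all genes). Line numbers were not taken to pair genotypes, so this difference depends on which cultures happen to share a number. Pdk1 was at 48.1, 60.1, 19.5 and 13.0 CPM in the Fib-Ctrl libraries and 15.5, 28.3, 44.9 and 56.0 CPM in the Fib-dZeb1 libraries. It was lower in Fib-dZeb1 than in Fib-Ctrl in line 1 and higher in line 2, with no overlap between genotypes in either line. The difference of the contrasts was 2.94 on the log2 scale (SE 0.44, adjusted p = 0.00735), and it passed in every alternative fit and without each library in turn. Epas1 differed the other way, by -1.21 (SE 0.34, adjusted p = 0.0498). The Epas1 call was lost with library size alone and without any 1 library other than Fib-dZeb1 line 1 replicate 1.

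With the replicate number as a block, 9 members passed this test of the difference (27.3% against 24.0% of all genes), and with DESeq2 11 did (33.3% against 18% of all genes). The 9 were Bnip3, Epas1, Pdk1, Pfkl, Pfkm, Pgam1, Slc16a1, Slc16a3 and Tpi1. Without the block, Slc16a3 (log2 difference 3.37, adjusted p = 0.0525) and Bnip3 (log2 difference 1.74, adjusted p = 0.0518) were just outside the threshold. Without Fib-dZeb1 line 1 replicate 1 the count was 11 (33.3% against 21.6% of all genes), without Fib-dZeb1 line 1 replicate 2 it was 7 (21.2% against 15.2%), and without any other library it was 1. In the lines themselves the block added Gpi1, Pfkfb3, Pfkp and Pgam1 to the line 1 calls (13 in all, 39.4% against 36.1% of all genes). To the line 2 calls it added Hk1 and Tpi1 (9 in all, 27.3% against 38.1% of all genes).

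The lines of 1 genotype were also set against each other. Between the Fib-Ctrl lines, 4 members passed (12.1% against 17.0% of all genes): Epas1 was higher in line 2 (log2 fold change 0.86, SE 0.24, adjusted p = 0.0474), and Pdk1 (log2 fold change -1.74, SE 0.31, adjusted p = 0.0118), Bnip3 (log2 fold change -1.27, SE 0.34, adjusted p = 0.0439) and Ldhb (log2 fold change -1.23, SE 0.27, adjusted p = 0.0233) were lower. Ldhb, the lactate dehydrogenase subunit of oxidative tissues, was at 48.9, 40.8, 16.7 and 21.7 CPM in the Fib-Ctrl libraries and 36.0, 21.8, 30.2 and 22.5 CPM in the Fib-dZeb1 libraries. Both line 2 libraries of Fib-Ctrl were below every other library. For Pdk1, this gap between control lines was larger in size than either genotype contrast. With the replicate block 7 members passed (21.2% against 25.8% of all genes), with Pfkl, Pgam1 and Tpi1 added. The count fell to 0 without Fib-Ctrl line 2 replicate 2 (5 at an unadjusted p under 0.05), to 1 without any other Fib-Ctrl library and to 2 without either Fib-dZeb1 line 2 library, and it was 10 without either Fib-dZeb1 line 1 library (30.3% against 24.5% and 24.8% of all genes).

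Between the Fib-dZeb1 lines, edgeR called 0 members at an adjusted p under 0.05, against 6.87% of all genes. There were 6 of 33 members at an unadjusted p under 0.05, against 3319 of 12963 genes. DESeq2 (6.06% against 10.9% of all genes) and the edgeR fit with the replicate block (6.06% against 13.5%) each called 2, Aldoc and Pdk1. Pdk1 had a log2 fold change of 1.20 (SE 0.31, adjusted p = 0.0593). Fits without a library of Fib-dZeb1 line 1 leave that line with a single library, and their calls are not read here. The line contrasts share libraries with each other and with the comparison of genotypes, and their values are given side by side for that reason.

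**Figure D5:**
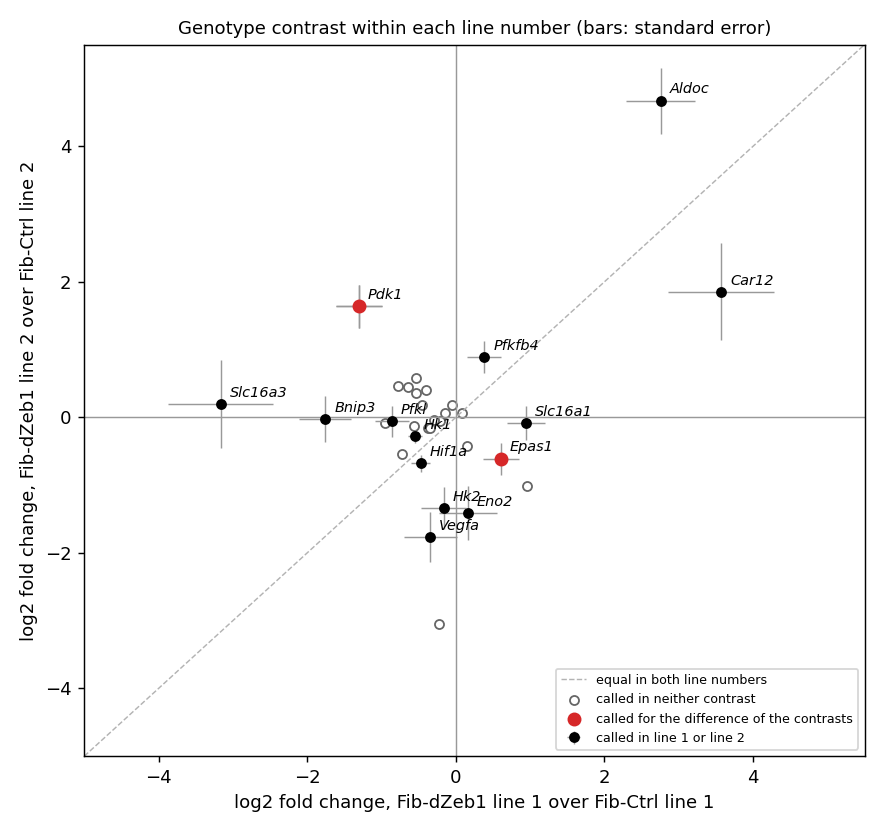
Log2 fold change of Fib-dZeb1 against Fib-Ctrl in line 1 (x axis) and in line 2 (y axis) for the 33 tested genes, with standard errors as bars. Aldoc and Hif1a lie on the same side of 0 in both lines, and Pdk1 (-1.30 and 1.64) and Epas1 (0.61 and -0.61), in red, are the genes whose contrasts differed.

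Single libraries carried much of the spread of this gene set. Fib-dZeb1 line 1 replicate 1 held the lowest CPM of the 8 libraries for 17 of 33 members, 10 of them enzymes, while it held the lowest value of 11.1% of all genes. Fib-Ctrl line 1 replicate 2 held the highest for 14 members, 8 of them enzymes, against 11.9% of all genes. Within every culture the replicates also stood in the same order for a group of enzymes. Gpi1, Tpi1, Gapdh, Pgk1, Eno1, Pkm, Egln1 and Egln3 were higher in replicate 2 than in replicate 1 in all 4 cultures, 8 of 33 members against 15.1% of all genes.

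Fitted over the 4 cultures, replicate 2 against replicate 1 gave the members a median log2 fold change of 0.27, the 17 enzymes 0.28 and all genes -0.01. It was 0.44 for Ldha, 0.43 for Tpi1, 0.37 for Pgk1, 0.28 for Gapdh, -0.42 for Eno2 and -0.50 for Pfkp. No member passed by edgeR (0 called), and 0.0231% of all genes did. At an unadjusted p under 0.05 there were 11 of 33 members, against 2539 of 12963 genes. This comparison was added after the data were seen. Of the 10 proliferation genes, 8 were higher in replicate 2 in all 4 cultures, with a median log2 fold change of 0.37, and their part in the enzyme values was not tested. In the libraries of replicate 1 alone, the genotype comparison called 0 members (6 at an unadjusted p under 0.05). Of all genes it called 0.0304% higher and 0.00761% lower. In those of replicate 2 alone it called 0 members (2 at an unadjusted p under 0.05), with 0.0456% of all genes higher and 0.0304% lower.

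Other genes of the pathways were read from longer lists. Of 31 further genes of glycolysis and glucose transport, 30 had values, 17 were tested, 5 fell and none rose (29.4% called, against 16.2% of all genes). Bsg and Slc2a3 had the smallest adjusted p, and Slc2a10, Slc16a7 and Bpgm are named because the calls were few. Bsg, the chaperone that carries the lactate transporters to the membrane, was at 722, 761, 696 and 651 CPM in the Fib-Ctrl libraries and 515, 477, 484 and 481 CPM in the Fib-dZeb1 libraries (log2 fold change -0.53, SE 0.09, adjusted p = 0.00732). It was thus lower in every Fib-dZeb1 library, while its partners Slc16a1 and Slc16a3 overlapped. Slc2a10 had a log2 fold change of -1.47 (adjusted p = 0.0149), Slc16a7 of -2.21 (adjusted p = 0.0254) and Bpgm of -0.86 (adjusted p = 0.0259).

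The Slc2a3 (GLUT3) call depended on the scale. It ran from 2.27 to 8.66 CPM across the Fib-Ctrl libraries and from 0.168 to 0.729 CPM across those of Fib-dZeb1 (log2 fold change -3.40, adjusted p = 0.0109). Once transcript length was taken into account the call was lost (log2 fold change -1.86, adjusted p = 0.15). In TPM the genotypes overlapped, at 3.81, 1.98, 1.14 and 0.934 in the Fib-Ctrl libraries and 0.0932, 0.892, 0.356 and 1.39 in the Fib-dZeb1 libraries.

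Of 49 further HIF target genes, which include Slc2a3 again, 45 were tested, 7 rose and 7 fell (31.1% called, against 16.2% of all genes), with a median log2 fold change of -0.13. By adjusted p, Ets1 (0.74 on the log2 scale, adjusted p = 0.0104) and Tfrc (1.27, adjusted p = 0.0105) led those that rose. Tfrc, the transferrin receptor, was at 54.3 to 73.1 CPM across Fib-Ctrl libraries and 118 to 243 CPM in Fib-dZeb1. P4ha1 (-0.71, adjusted p = 0.0044) and Tmem45a (-2.70, adjusted p = 0.00686) led those that fell. P4ha1, a collagen prolyl hydroxylase subunit, was at 433 to 527 CPM and 286 to 319.7 CPM. With transcript length taken into account, 3 of the 14 calls were lost, those of Slc2a3, Bnip3l and Wsb1.

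Of 18 further regulators of the HIF pathway, 17 were tested and 1 fell (5.88% called), Os9 (log2 fold change -0.74, SE 0.13, adjusted p = 0.00922). Of 31 genes of pyruvate oxidation, all tested (9.68% called), Idh3b (0.40) and Sucla2 (0.54) rose and Pdk2 (-1.22), a relative of Pdk1, fell, with log2 fold changes in parentheses. The median of that list was -0.04. Of 15 genes of the pentose phosphate and serine branches, Shmt1 rose (log2 fold change 0.95) and 14 did not pass (6.67% called). The Shmt1 call was lost with transcript length taken into account (adjusted p = 0.166).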

How the data were processed

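RNA was purified by poly-T capture from 8 libraries of cultured colon fibroblasts, 4 of each genotype from 2 lines with 2 replicates each. The authors aligned reads to GRCm38 with STAR and quantified transcripts with Salmon (names from the submitters' processing notes and the methods; their versions and the strand setting were not given in the sources used here). The deposited tables hold estimated counts per transcript, which need not be whole, and TPM, both made by the authors per library without pooling. No table of the authors' own comparisons was used. Estimated counts were summed by gene through the annotation of 108214 of 109617 transcripts (98.7%). The unmatched transcripts took 0.262% to 0.303% of reads. The sums were then rounded to whole reads. A second gene ID with the symbol Aldoa, with 0 to 5 reads, was left out.

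Genes with enough reads in 4 libraries (filterByExpr) were tested with edgeR 4.0.16 (quasi-likelihood test, TMM scaling) in R 4.3.3, and p-values were adjusted by the Benjamini-Hochberg method over all 12963 genes tested. A gene low in a genotype could pass this filter through the other genotype alone, as Aldoc and Car12 did. Both were also called with no filter. CPM values are from the same scaled counts, and TPM values are the deposited ones summed by gene. The genotype fit held the groups only, and the line contrasts came from a fit of the 4 cultures. limma 3.58.1 and DESeq2 1.42.0 were alternatives, and other scalings, no filter, blocks and leaving out each library were tried. Transcript shares of Pkm were compared by an exact permutation test (scipy 1.17.1). The scripts were tested on simulated data with known changes. The typical biological variation between libraries of a genotype was 32.1% (edgeR common coefficient of variation).

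Deviations of same-numbered libraries of opposite genotypes correlated at 0.20, -0.04, -0.04 and 0.07 over genes, and 3 of the 8 libraries correlated best with their own number, so the numbers were not taken to pair genotypes. The step between replicates was correlated for every pair of cultures (0.14 to 0.34). The main line contrasts were nevertheless fitted without a replicate term. The replicate number entered as a block in an alternative fit and in the comparison of replicate 2 with replicate 1. Blocked values are given where they move a count by over 1.5 times. The members, the longer gene lists and the tests were chosen with earlier results of these data known. Members are described with all their values where they passed a test, where the genotypes did not overlap, or where they were the 2 of highest mean TPM in their role, and the others by ranges. Of each longer list, the genes of smallest adjusted p that rose or fell are named, at most 2 each way, and further ones were named after their values were seen. Promoter windows and exon sequences came from RefSeq (GRCm38.p6) and the GRCm38 genome.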

Additional observations from a re-analysis of the deposited data

Results flagged for a closer look

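In 3 of the 66 groups of 4 libraries examined, the highest library stood apart from the other 3, and chance alone gives about 1 in 20. All 3 were enzymes in Fib-Ctrl with line 1 replicate 2 as the highest library. Gpi1 was at 483 CPM in that library and 400.5 CPM in the next, a gap of 0.856 of the group's whole range. Pgk1 was at 1125 CPM and 826 CPM, a gap of 0.838, and Ldha at 1535 CPM and 1110.3 CPM, a gap of 0.850. For 2 genes the contrast of cultures with the same line number differed between line 1 and line 2 by a test of the difference itself, in the fit without the replicate block. Line numbers were not taken to pair genotypes, so a genotype effect that depends on line and a difference between cultures cannot be told apart. With the block 9 members passed this test, and with DESeq2 11, Pdk1 and Epas1 among them in both. For Pdk1 the difference of the log2 fold changes of line 2 and line 1 was 2.94 (edgeR, adjusted p = 0.00735), with every library of Fib-dZeb1 below every library of Fib-Ctrl in line 1 and above them in line 2. For Epas1 it was -1.21 (edgeR, adjusted p = 0.0498).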

How the results depend on the processing

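Of the counts of members called, 2 higher and 2 lower in Fib-dZeb1 over 8 libraries, the higher count was 0 with cultures summed, with limma-voom and the culture correlation, and in the libraries of replicate 1 or of replicate 2 alone (the replicate fits were chosen after seeing the data). It was 3, with Pfkfb4 added, with library size alone, DESeq2 and limma on log2(TPM + 1). The lower count was 0 in these 4 fits, 1 with library size alone, 1 with limma on log2(TPM + 1), 5 with DESeq2, and 2 to 4 without each library in turn. In the fits that called 0, at most 0.879% of all genes were called higher and 1.13% lower, both with limma-voom. The replicate block left both counts at 2. For line 1 (9 members) the count was 18 with no filter and 2 to 16 without each library, and for line 2 (7 members) 15 and 2 to 10. For the difference between lines (2 members) it was 4 with library size alone, 18 with no filter, 9 with the replicate block, 11 with DESeq2 and 1 to 11 without each library. Between Fib-Ctrl lines (4 members) it was 14 with no filter, 7 with the replicate block, 7 with DESeq2 and 0 to 10 without each library. Between Fib-dZeb1 lines (0 members) it was 1 with library size alone, 8 with no filter, 2 with the replicate block, 2 with DESeq2 and 0 to 3 without each library. In those 5 line comparisons the cause of the shifts was not tested. The share of all genes called moved too. In the order above, the main fits called 27.4%, 28.8%, 15.3%, 17.0% and 6.87%, against 27.3%, 21.2%, 6.06%, 12.1% and 0% of members. With the replicate block it was 36.1%, 38.1%, 24.0%, 25.8% and 13.5%, against 39.4%, 27.3%, 27.3%, 21.2% and 6.06% of members. With no filter it was 21.8%, 22.5%, 15.3%, 16.7% and 10.4%, against 52.9%, 44.1%, 52.9%, 41.2% and 23.5% of members. The fits with no filter took in 21336 genes, against 12963 in the main fits. The added genes had too few reads for the filter, so these shares of all genes are not like those of the members. Egln3 reversed in single libraries: its log2 fold change in line 1 ran from -1.23 to 1.79, and between Fib-dZeb1 lines from -1.03 to 1.99, with -1.23 and 1.99 without Fib-dZeb1 line 1 replicate 2. The Pkm share difference ran from -12.9 to -10.4 points without each library. Among members that were not called, signs changed 33 times in 13 members over the other settings of the genotype comparison, and no called member changed sign there. Depth limits Car9, Adm, Aldoc, Car12 and Ankrd37, whose lowest libraries held 1, 2, 4, 5 and 20 reads.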

Other observations

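Of 17 genes of glycogen storage and gluconeogenesis, 12 were tested, 3 fell in Fib-dZeb1 and none rose by edgeR (25% called, against 16.2% of all genes in either direction and 8.65% lower). Ugp2, which makes the UDP-glucose that glycogen is built from, was at 143 to 201 CPM in Fib-Ctrl and 76.1 to 141 CPM in Fib-dZeb1 (log2 fold change -0.74, adjusted p = 0.0404). Gyg, which primes glycogen, was at 48.4 to 59.8 CPM and 36.4 to 44.2 CPM (log2 fold change -0.38, adjusted p = 0.0474), a call lost with transcript length taken into account (adjusted p = 0.0607). Pygl, a glycogen phosphorylase, was at 2.37 to 7.41 CPM and 0 to 0.41 CPM, with 1 Fib-dZeb1 library at 0 (adjusted p = 0.00722). Fbp1, Fbp2, Pck1 and G6pc, enzymes of gluconeogenesis, were listed at 0 in every library.

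Of the 10 proliferation genes, all tested, Pcna (log2 fold change 0.65, adjusted p = 0.025) and Bub1 (log2 fold change 0.71, adjusted p = 0.0272) rose in Fib-dZeb1 and 8 did not pass (20% called), with a list median of 0.43. Their summed level was 790 to 1245 TPM in Fib-Ctrl and 1243 to 1687 TPM in Fib-dZeb1. Endothelial markers summed to 0.420 to 1.13 TPM and 0.458 to 1.39 TPM, immune markers to 2.99 to 23.8 TPM and 3.94 to 5.10 TPM, and enteric glia and neuron markers to 3.87 to 13.4 TPM and 3.43 to 12.9 TPM. Only 1 of 7, 3 of 7 and 1 of 6 of these markers had enough reads to be tested, and none was called. The immune markers tested were Lyz2 (log2 fold change -2.40, adjusted p = 0.0605), Csf1r (-0.93, adjusted p = 0.064) and Cd68 (0.98, adjusted p = 0.13). Of the 2 markers of interstitial cells of Cajal, only Ano1 was tested, and it was called higher (summed level 2.35 to 11.4 TPM and 16.1 to 58.8 TPM). Of the 4 mesothelial markers, only Msln was tested, and it was called higher (summed level 0.0950 to 0.643 TPM and 1.41 to 7.77 TPM). Among all genes tested, 7.54% were called higher.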
